A study of Mus musculus with 4 samples.

Results

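Interferon stimulated genes are the effector arm of the antiviral response. Type I interferons bind a receptor made of the IFNAR1 and IFNAR2 chains, and the receptor's kinases activate a transcription factor complex that holds STAT2 and IRF9 and binds a promoter motif called the interferon stimulated response element (ISRE). The induced proteins block virus entry, destroy or mask viral RNA, sense nucleic acids and feed back on the pathway. In tumors, macrophages and other myeloid cells commonly express such genes, and many of them, above all the guanylate binding proteins (GBPs) and the immunity related GTPases (IRGs), also respond to interferon gamma. The 48 genes described here were chosen by symbol from a fixed list of type I interferon stimulated genes. All 48 were among the 55367 gene rows of the count tables, and all 48 were among the 11837 genes that passed the filter on low counts and were tested.

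RNA-seq counts were available for 4 mouse libraries made from polyadenylated RNA of cells sorted as CD45.2+CD8+ out of dissociated B16-F10 tumors, a transplanted melanoma of C57BL/6 mice. Titles put 2 libraries in a group labeled WT (WT 1 and WT 2) and 2 in a group labeled KO (KO 1 and KO 2). The series concerns the transcription factor Satb1, and its design text lists WT mice beside 2 deletions of floxed Satb1 (Satb1 F/F), driven by ThPOK-cre or by E8I-cre, which act in the CD4 and in the CD8 lineage. No treatment beyond the tumor is given, and the labels do not say which Cre the KO libraries carry, nor age, sex or whether the 2 libraries of a group came from separate animals, so p-values measure only the spread between these libraries, which may be technical.

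The libraries held between 4017875 and 5382915 counts on genes. WT 1 and WT 2 had 7 and 5 counts of Satb1 and KO 1 and KO 2 had 131 and 55, so the groups are called by their labels throughout. As ThPOK-cre acts in the CD4 lineage, Satb1 of CD8+ cells checks the labels only if the KO libraries carry E8I-cre. Satb1, which T cells express, had a WT to KO ratio of 0.0973 in the fit, and that of the summed T cell markers was 0.0773 in normalized CPM. Whether titles were exchanged was not tested, and an exchange would turn every direction given here. T cell markers were scarce in the libraries labeled WT. The 10 markers listed summed to 64.7 and 107 CPM (counts scaled to a common library total) there against 1653 and 1132 in the libraries labeled KO, all 10 were higher in the libraries labeled KO, and 7 passed the test. The 13 macrophage or monocyte markers summed to 29747 and 40699 CPM against 24101 and 31019, with overlapping groups, but to 35743 and 42733 against 20439 and 28992 normalized CPM, without overlap. Of the 13, 9 had a log2 fold change below 0, with a median of -0.73, and none passed edgeR's test (3 lower at an unadjusted p under 0.05). Summed markers of melanoma (226 and 268 against 2395 and 1315 CPM) and of dendritic cells (63.5 and 109 against 289 and 178 CPM) were higher in both libraries labeled KO. So was the sum of the fibroblast or endothelium list (20.7 and 19.2 against 1355 and 198 CPM), where 3 of 4 tested passed the threshold. These 3 were the collagens Col1a1, Col1a2 and Col3a1. The endothelial marker Pecam1 overlapped, at 15.3 and 15.5 against 13.3 and 21.5 normalized CPM. Cdh5 had 1 and 6 against 1 and 1 counts, and Pdgfrb had 6 counts in KO 1 and 0 elsewhere. Xist had 435 and 216 counts in WT 1 and WT 2 but 0 and 3 in KO 1 and KO 2, so the sex of the mice and the group label cannot be told apart. In bulk RNA, fewer cells of a type and less RNA per cell cannot be told apart either, and the part of these differences in the values below was not tested.

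The summed level of the 48 genes was lower in both libraries labeled KO. It was 12015 and 9731 CPM in WT 1 and WT 2 and 7248 and 8565 CPM in KO 1 and KO 2, or 10873 ± 1616 against 7906 ± 931 CPM (SD, n = 2 each). The groups did not overlap, and the ratio of the means was 1.38. In normalized CPM the sum was 14437 and 10217 against 6146 and 8005, also without overlap, with a ratio of 1.74. No test is given for this sum, because with so few libraries the smallest p of an exact permutation test is 0.333. A single gene, Ifitm3, held 27.9% and 25.6% of the summed counts in WT 1 and WT 2 and 19.97% and 17.8% in KO 1 and KO 2. Without Ifitm3 the other 47 genes summed to 8667 and 7241 CPM against 5800 and 7044 CPM, and the groups still did not overlap, with KO 2 close to WT 2.

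Gene by gene, none of the 48 passed the threshold of an adjusted p of 0.05 in the edgeR quasi-likelihood test, where 0.574% of all genes tested did (0.549% with the libraries labeled KO higher, 0.0253% with them lower). At an unadjusted p under 0.05, 4 were lower in the libraries labeled KO (Ifitm2, Ifitm3, Zbp1 and Ifi35; 4.23% of all genes) and 2 were higher (Eif2ak2 and Gbp7; 9.44% of all genes). The count of 4 was 0 with library totals alone and on the macrophage or monocyte scale (libraries scaled to those markers). It was also 0 with the replicate number as a block and with each library's trend on exon length removed. With trends on GC content and exon length removed it was 2, with that on GC content alone removed 6, and in DESeq2 10. It moved in both directions when single libraries were left out. The share of all genes at this p in those fits was not computed, so these counts are no result about the 48 genes. DESeq2 also called none of the 48 at an adjusted p under 0.05, where it called 3.51% of all genes. The fitted log2 fold change (KO over WT) was below 0 for 35 of the 48, against 47.4% of all genes tested, and its median was -0.53 against 0.05 for all genes. Single genes ranged from -1.32 for Ifitm3 to 1.97 for Gbp7. Normalized levels did not overlap between the groups for 24 of the 48. The libraries labeled KO were lower for 18 of these, against 22.6% of all genes, and higher for 6, against 25.3%. These counts depend on the scale. In CPM on library totals, Ifit3b, Samhd1, Oasl2, Adar, Xaf1, Igtp and Ifi47 of the 18 overlapped. On that scale Ddx58 and Sp100 were higher in both libraries labeled KO without overlap.

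**Figure D1:**
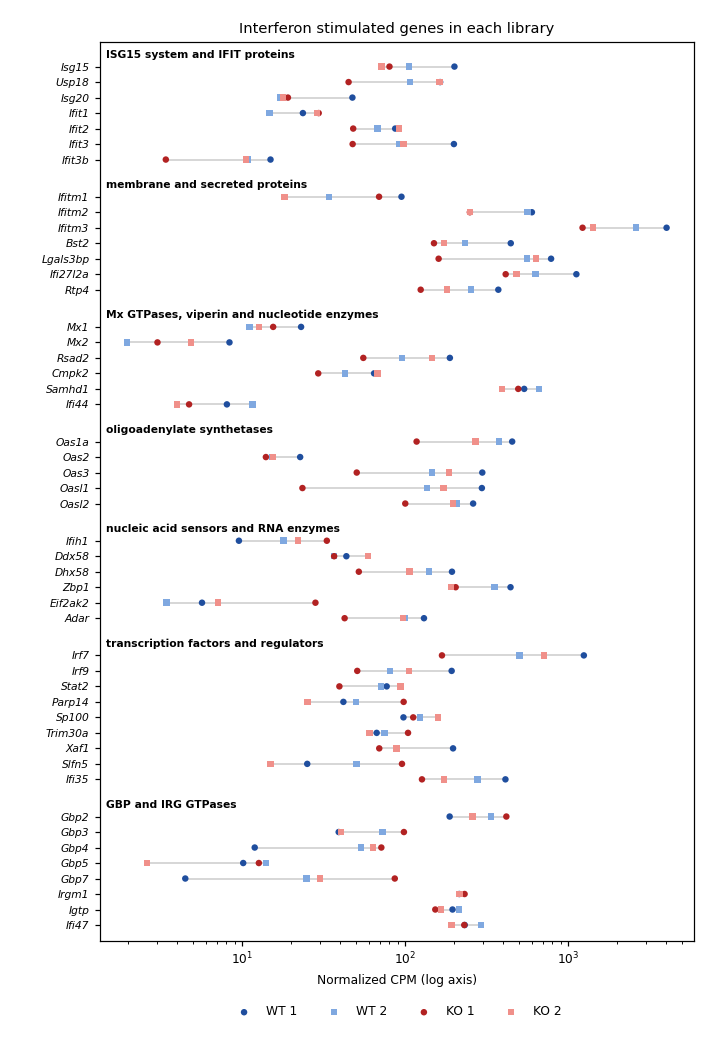
Normalized CPM of each of the 48 interferon stimulated genes (rows, grouped by role) on a log axis, with 1 point per library and a gray line from the lowest to the highest of the 4. Both blue points (WT) lie to the right of both red points (KO) for 5 of 7 membrane and secreted genes, WT 1 is the rightmost and KO 1 the leftmost point for all 5 OAS genes, and the order of the groups turns around for Gbp4 and Gbp7.

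The scale of the counts sets how much lower the group stood. With libraries scaled by their totals alone the median was -0.15, and with libraries scaled to the macrophage or monocyte markers it was 0.17, with 22 of the 48 below 0. The median of all genes moved with it, from 0.05 to 0.38 and 0.75, so the distance between the medians went only from -0.58 with the TMM factors (trimmed mean of M-values) used here to -0.53 and -0.59. Statements on level below are on the scale of normalized CPM, which uses the TMM factors, unless another scale is named.

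Single libraries carried much of the pattern. WT 1 was the highest of the 4 libraries for 27 of the 48 genes (56.25%, against 27.6% of all genes tested), and KO 1 was the lowest for 24 (50%, against 31.2%). The median log2 fold change was -0.18 without WT 1, -0.89 without WT 2, -0.32 without KO 1 and -0.92 without KO 2. With KO 2 left out, 11 of the 48 passed the threshold, when 9.72% of all genes did. These were 9 lower genes (Adar, Dhx58, Ifi35, Irf7, Lgals3bp, Oas1a, Oas3, Oasl1 and Usp18) and 2 higher ones (Eif2ak2 and Gbp7). Gbp7 alone passed with WT 2 left out, when 1.73% of all genes did. A fit that leaves 1 library in a group assumes that it varies like the other group.

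**Figure D2:**
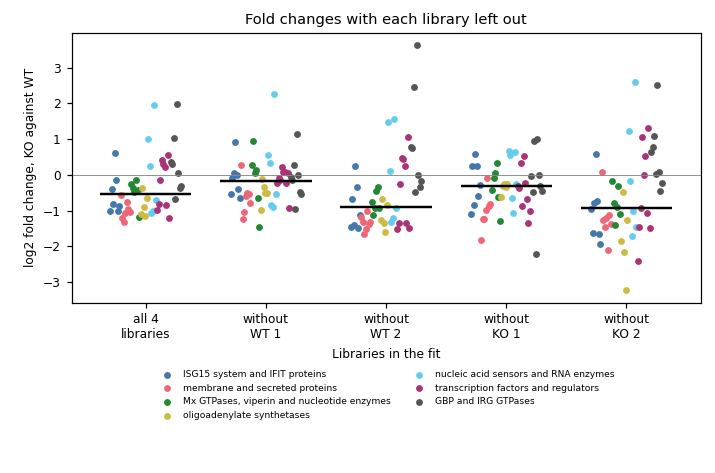
Fitted log2 fold changes of KO against WT for the 48 genes with all 4 libraries and with each library left out in turn (columns). Points are genes, colored by role, and black bars are medians, which run from -0.92 without KO 2 to -0.18 without WT 1.

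Many promoters of the group carry the ISRE. Its core was searched as GAAANNGAAA on both strands, overlapping matches counted, in RefSeq promoter windows on GRCm38.p6, which run from 250 bases before a transcript start to 50 bases from it. Windows were given for 38 of the 48 genes. The core was in at least 1 window of 22 of the 38 (57.9%), against 3.99% of 27025 genes with a window. A second interferon motif, the GAS element, was searched as TTCNNNGAA and was in a window of 12 of the 38 (31.6%) against 9.55% of all genes. A match is a description of the letters and no evidence of binding. Of the 22 genes with an ISRE core, 12 had a log2 fold change below 0 and the median was -0.26, and of the 16 with a window but no core, 15 did and the median was -0.74. The windows of the 4 genes of highest mean CPM among those with a core show how differently it can be placed. They are printed in the direction of transcription from 250 bases before the start through the first 30 bases of the transcript, with the ISRE cores in capitals. The Ifitm3 window is chr7:141010715-141010994 on the minus strand, that of Ifitm2 chr7:140955932-140956211 on the minus strand, that of Gbp2 chr3:142620413-142620692 on the plus strand and that of Oas1a chr5:120907496-120907775 on the minus strand.
Ifitm3: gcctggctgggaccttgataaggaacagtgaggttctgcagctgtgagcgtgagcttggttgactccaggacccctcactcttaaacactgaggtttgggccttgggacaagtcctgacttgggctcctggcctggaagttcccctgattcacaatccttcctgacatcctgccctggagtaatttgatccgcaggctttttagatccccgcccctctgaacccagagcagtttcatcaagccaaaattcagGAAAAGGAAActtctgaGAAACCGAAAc
Ifitm2: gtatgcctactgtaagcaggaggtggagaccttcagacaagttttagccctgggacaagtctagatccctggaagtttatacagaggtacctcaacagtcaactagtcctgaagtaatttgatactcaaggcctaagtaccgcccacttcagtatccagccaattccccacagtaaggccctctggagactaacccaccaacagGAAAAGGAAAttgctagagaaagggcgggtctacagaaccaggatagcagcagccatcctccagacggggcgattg
Gbp2: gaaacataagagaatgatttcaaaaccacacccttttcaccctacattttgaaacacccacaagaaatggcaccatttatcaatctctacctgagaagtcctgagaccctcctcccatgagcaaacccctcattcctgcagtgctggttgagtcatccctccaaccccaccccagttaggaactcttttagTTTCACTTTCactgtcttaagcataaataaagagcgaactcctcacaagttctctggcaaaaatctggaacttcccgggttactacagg
Oas1a: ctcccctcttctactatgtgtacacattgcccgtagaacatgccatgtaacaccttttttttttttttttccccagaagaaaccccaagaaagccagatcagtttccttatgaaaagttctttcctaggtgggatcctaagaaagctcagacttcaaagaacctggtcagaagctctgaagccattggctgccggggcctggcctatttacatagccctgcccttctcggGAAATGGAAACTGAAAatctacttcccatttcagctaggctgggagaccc
Ifitm3 holds 2 cores just inside the transcript. Ifitm2, its neighbor on chromosome 7, holds 1 core 46 bases before the start, and Gbp2 holds 1 on the other strand 59 bases before it. Oas1a holds 2 overlapping cores whose first bases lie 20 and 14 bases before the start. Ifitm2, Ifitm3 and Oas1a were lower in both libraries labeled KO, and Gbp2 was not.

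All 7 genes for membrane and secreted proteins had a log2 fold change below 0, with a median of -1.04, and WT 1 was the highest library for all 7. The median was -0.41 on the macrophage or monocyte scale, -0.58 without WT 1, -0.62 with each library's trend on exon length removed and -0.44 with that on GC content removed as well. Ifitm3, which keeps enveloped viruses from fusing with endosomal membranes, was at 4023 and 2614 normalized CPM in WT 1 and WT 2 and at 1228 and 1421 in KO 1 and KO 2, or 3318 ± 996 against 1325 ± 137 (SD, n = 2). Both libraries labeled KO lay below both libraries labeled WT, by 2.51-fold in the fit, with a log2 fold change of -1.32 ± 0.54 (SE) and an adjusted p of 0.325. Ifitm2, a close relative with the same role, was at 600.2 and 564 against 249.9 and 249.7 normalized CPM. The 2 libraries of each group lay near each other, and its fold change of -1.22 ± 0.45 had the lowest adjusted p of the 48 genes, 0.288. An overlapping gene model, Gm45717, covers 40.9% of the Ifitm2 exon bases on the same strand, so part of its reads could have been counted elsewhere. Bst2, or tetherin, which holds budding virions at the cell surface, was at 445 and 234 against 150.5 and 173 normalized CPM (-1.07 ± 0.48, adjusted p = 0.373). Rtp4, a chaperone that also restrains viral replication, was at 374 and 255 against 125 and 181 (-1.04 ± 0.46, adjusted p = 0.368). For both genes all values in the libraries labeled WT lay above those labeled KO. The other members were Ifi27l2a at -0.97, Lgals3bp at -0.75 and Ifitm1 at -0.56. Ifitm1 did not follow its neighbors, with 95.1 and 34.3 against 69.3 and 18.2 normalized CPM, and its direction was 0.27 without WT 1 and 0.07 without KO 2.

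Some of these genes were also the most abundant of the 48 per length. In normalized CPM per kilobase of exon in the libraries labeled WT, Ifitm3 stood at 4894, Ifi27l2a at 1896, Ifitm2 at 888, Bst2 at 376 and Lgals3bp at 236, and by the mean of both groups these were the 5 highest of the 48. By the same mean the lowest was Ifi44, at 1.604 per kilobase in the WT group and 0.712 in the KO group.

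The oligoadenylate synthetase (OAS) family, whose enzymes make the messenger that activates RNase L on double-stranded RNA, shared its highest and its lowest library. All 5 genes had a log2 fold change below 0, with a median of -0.91, and in all 5 WT 1 was the highest and KO 1 the lowest library. Oasl1, a family member without that activity that represses Irf7 translation, was at 296 and 137 in WT 1 and WT 2 and at 23.47 and 173 normalized CPM in KO 1 and KO 2. KO 1 stood apart from the other 3 libraries, the groups overlapped, and the fold change was -1.14 ± 0.79 (adjusted p = 0.548). Oas3, the member with the longest protein, was at 298 and 146 against 50.5 and 186 normalized CPM. Its groups overlapped in the same way, with a fold change of -0.91 ± 0.64 (adjusted p = 0.555). Oas1a, at 454 and 377 against 118 and 271 normalized CPM, did not overlap (-1.09 ± 0.52, adjusted p = 0.392), and neither did Oasl2 at 262 and 207 against 100.3 and 197 (-0.66 ± 0.48, adjusted p = 0.569). Oas1a shares 57.6% of its 50-base words with Oas1g, so reads could have been lost or split between these genes. The median of the family was -0.30 without KO 1 and -1.85 without KO 2, and thus moved with both. It was -0.50 without WT 1 and -0.40 on the macrophage or monocyte scale.

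In the ISG15 system and the IFIT family, 6 of 7 genes had a log2 fold change below 0, with a median of -0.80. That median was -0.16 on the macrophage or monocyte scale, -0.43 with library totals alone, -0.08 without WT 1 and -0.29 without KO 1. Isg15, a ubiquitin-like protein that is attached to viral and host proteins, was at 201 and 106 against 80.3 and 71.7 normalized CPM. Its groups did not overlap (-1.01 ± 0.46, adjusted p = 0.377). Ifit3, which binds viral RNA together with other IFIT proteins, was at 199 and 92.7 against 47.7 and 97.9 normalized CPM. Here KO 2 matched WT 2 and the groups overlapped (-1.003 ± 0.54, adjusted p = 0.446). Its near copy Ifit3b, which shares 44.5% of its 50-base words with Ifit3, was at 14.95 and 10.8 against 3.41 and 10.6 (-0.87 ± 0.70, adjusted p = 0.604), and counts of this pair are uncertain. Isg20, an exonuclease that degrades RNA, stood out only in WT 1, at 47.5 normalized CPM against 17.2 in WT 2, 19.1 in KO 1 and 17.9 in KO 2. Ifit1, which binds RNA that lacks the host cap methylation, ran the other way at 23.6 and 14.8 against 29.5 and 28.8 normalized CPM. Its groups did not overlap, with a fold change of 0.61 ± 0.49 (adjusted p = 0.607). The fold change of Ifit1 was 0.92 without WT 1, 0.25 without WT 2 and 1.28 on the macrophage or monocyte scale. It was 0.07 with each library's trend on GC content removed and 0.16 with that on exon length removed as well.

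**Figure D3:**
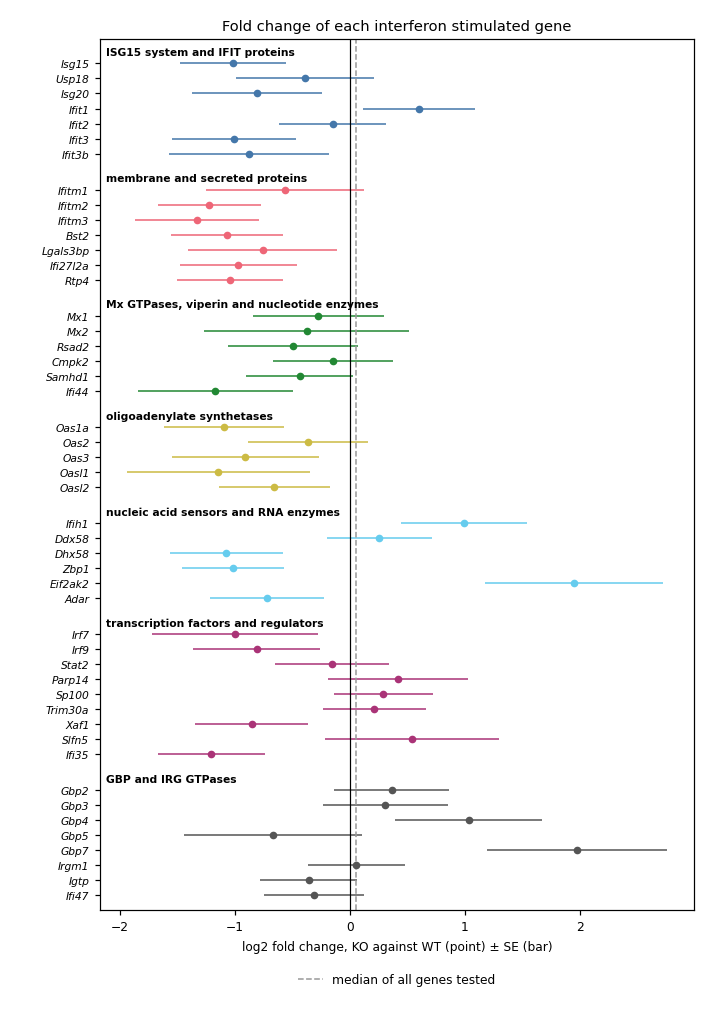
Fitted log2 fold change of KO against WT (point) with its SE (bar) for each of the 48 genes, grouped by role, with a solid line at 0 and a dashed line at the median of all genes tested (0.05). Points of the membrane and OAS groups lie left of both lines, and Eif2ak2 and Gbp7 lie farthest to the right, at 1.95 and 1.97.

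The Mx GTPases, viperin and nucleotide enzymes had a median of -0.40, with all 6 genes below 0. The median was 0.25 when libraries were scaled to the macrophage or monocyte markers, 0.09 without WT 1, -0.25 without KO 1, -0.84 without WT 2 and -0.85 without KO 2. Samhd1, which depletes the nucleotides that reverse transcription needs, was the most abundant at 538 and 665 against 495 and 395 normalized CPM. Its groups did not overlap but lay close together (-0.44 ± 0.46, adjusted p = 0.714). Rsad2, or viperin, which makes a chain-terminating nucleotide, was at 188 and 96.1 against 55.5 and 147 normalized CPM, with overlapping groups (-0.49 ± 0.56, adjusted p = 0.737). Ifi44, at 8.07 and 11.6 against 4.73 and 3.99 normalized CPM, and Mx2, at 8.37 and 1.97 against 3.03 and 4.86, were scarce. Ifi44 did not overlap (-1.17 ± 0.67, adjusted p = 0.472), and Mx2, annotated as a polymorphic pseudogene, did (-0.37 ± 0.89, adjusted p = 0.884).

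The nucleic acid sensors and RNA enzymes split. Of 6 genes, 3 had a log2 fold change below 0, and the median of -0.23 was 0.09 with library totals alone, 0.38 on the macrophage or monocyte scale, 0.16 without KO 1, -0.10 without WT 1, -0.42 without WT 2 and -0.58 without KO 2. Zbp1, a sensor of Z-form nucleic acids that can start necroptosis, was at 444 and 355 against 204 and 191 normalized CPM, without overlap (-1.01 ± 0.44, adjusted p = 0.358). Dhx58, which tunes the other RIG-I-like receptors, was at 194 and 140.0 against 52.1 and 107 normalized CPM, without overlap (-1.07 ± 0.49, adjusted p = 0.375). Both genes were below 0 under every alternative tried. The RNA receptor Ifih1, or MDA5, lay on the other side, at 9.57 and 17.99 against 33.1 and 22.1 normalized CPM, without overlap (0.995 ± 0.54, adjusted p = 0.453). Eif2ak2, the kinase PKR that stops translation on double-stranded RNA, was at 5.68 and 3.45 against 28.2 and 7.12 normalized CPM. Both libraries labeled KO were higher, KO 1 far more so, and the fold change was 1.95 ± 0.77 (adjusted p = 0.310), or 0.64 without KO 1. Ddx58, or RIG-I, was at 43.7 and 36.7 against 36.7 and 59.4 normalized CPM, with KO 2 the highest and the other 3 libraries close together (0.26 ± 0.45, adjusted p = 0.835).

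Among the transcription factors and regulators, 5 of 9 genes had a log2 fold change below 0, with a median of -0.16 that was 0.15 with library totals alone and 0.44 on the macrophage or monocyte scale. It was -0.94 without KO 2, -0.38 without KO 1, -0.24 without WT 2 and -0.09 without WT 1. Irf7, the factor that amplifies interferon production, spread most widely. It was at 1250.3 in WT 1 and 504 in WT 2 and at 168 in KO 1 and 711 normalized CPM in KO 2. The groups overlapped, the libraries labeled KO differed from each other by 4.22-fold, and the fold change was -0.996 ± 0.72 (adjusted p = 0.566). It was -0.23 without WT 1, -1.53 without WT 2, -0.31 without KO 1 and -2.42 without KO 2. Irf9, the DNA-binding part of the complex with STAT2, was at 193 and 81.1 against 50.9 and 105 normalized CPM, again with overlap (-0.81 ± 0.55, adjusted p = 0.543). Ifi35, a leucine zipper protein of the response, was at 413 and 278 against 127 and 173 normalized CPM. It did not overlap and had a fold change of -1.20 ± 0.46 (adjusted p = 0.3002). Another gene model on the opposite strand, Gm11626, covers 16.8% of its exon bases, and the strand setting of the counting is not stated. Xaf1, which binds and opposes the apoptosis inhibitor XIAP, was at 197 and 89.2 against 69.5 and 88.9 normalized CPM (-0.85 ± 0.49, adjusted p = 0.472), where only WT 1 stood apart. On the other side were Slfn5 at 0.55, Parp14 at 0.42, Sp100 at 0.29 and Trim30a at 0.21, each with overlapping groups and adjusted p between 0.786 and 0.863. For Slfn5 and Parp14, KO 1 was the highest library (95.8 and 98.1 normalized CPM) and KO 2 the lowest (14.9 and 25.2), and without KO 1 their fold changes were -1.35 and -0.87.

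The GBP and IRG GTPases, which coat and disrupt the vacuoles of intracellular pathogens, did not share a direction. Their median log2 fold change was 0.18, with 3 of 8 below 0, and it was -0.10 without WT 1, -0.17 without KO 1, 0.38 without WT 2, 0.35 without KO 2 and 0.96 on the macrophage or monocyte scale. WT 1, the highest library for 27 of the other 40 genes, was the highest for none of the 8 and the lowest for 5, WT 2 was above WT 1 for all 8, and KO 1 was the highest for 5 (for 11 of all 48). Outside the family, Ifih1, Parp14, Trim30a and Slfn5 also had WT 2 above WT 1 and KO 1 highest. Whether this order differs from that of the other 40 genes was not tested. Gbp7 had the widest range of the 48 genes, at 4.49 and 24.9 against 86.5 and 30.04 normalized CPM. Both libraries labeled KO were higher, although KO 2 was near WT 2, and the fold change was 1.97 ± 0.78 (adjusted p = 0.310). It was 1.01 without KO 1, 1.15 without WT 1 and 3.62 without WT 2. Gbp4 was at 11.96 and 53.7 against 71.6 and 63.6 normalized CPM, also without overlap (1.03 ± 0.64, adjusted p = 0.499), and its fold change was 0.27 without WT 1 and 2.44 without WT 2. Gbp2, the most abundant GBP, was at 188 and 338 against 418 and 259 normalized CPM, with overlap (0.37 ± 0.50, adjusted p = 0.783). Gbp3 was at 39.2 and 72.7 against 98.4 and 40.5 (0.31 ± 0.54, adjusted p = 0.835). Gbp5 was below 0, at 10.2 and 14.0 against 12.7 and 2.60 normalized CPM, where only KO 2 stood apart (-0.67 ± 0.77, adjusted p = 0.740). Of the 3 IRG genes, Igtp was at 196 and 214 against 153 and 166 normalized CPM (-0.36, adjusted p = 0.742). Ifi47 was at 232.4 and 292 against 231.0 and 193 (-0.31, adjusted p = 0.791), with WT 1 and KO 1 nearly tied. Neither overlapped on this scale, but both did in CPM on library totals, and Irgm1 was nearly flat. Irgm1, which regulates the other IRG proteins, was at 215 normalized CPM in WT 1 and WT 2, 232 in KO 1 and 216 in KO 2, a ratio of 1.08 between the highest and the lowest library.

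The fold changes of the group varied with transcript composition, as did those of all genes. Across genes, which are not independent replicates and share the same 4 libraries, Spearman's correlation of the log2 fold change with the GC content of the longest GENCODE M21 transcript was -0.68 over the 48 genes and -0.42 over 11651 genes tested. With exon length it was 0.54 and 0.24. When all genes were split into 3 equal bins by GC content, in the lowest bin, 6 of 18 interferon stimulated genes were below 0 (median 0.28, all genes 0.53). In the middle bin 19 of 20 were (median -0.66, all genes -0.01), and in the highest bin 10 of 10 were (median -1.03, all genes -0.34). The group's median was thus below that of all genes in each bin, by 0.26, 0.65 and 0.69 on the log2 scale. After each library's trend on GC content was removed, a step added after seeing the data, 40 of the 48 were below 0 and the median was -0.53. With the trend on exon length removed as well, 41 were below 0 and the median was -0.48. Of the genes above 0 in the first fit, Sp100, Trim30a, Slfn5, Gbp3 and Irgm1 were then below 0 under the GC correction, and the GBP and IRG median was -0.16. The part that RNA quality or library preparation has in these trends was not tested.

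**Figure D4:**
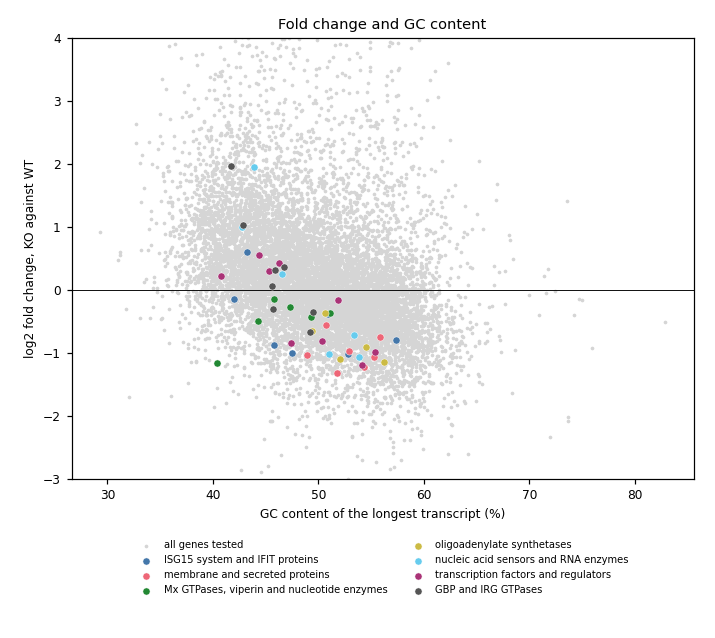
Fitted log2 fold change of KO against WT (vertical axis, cut at -3 and 4, beyond which 202 of 11651 genes lie) against the GC content of the longest transcript in percent. Gray points are all genes with a GC value and colored points the 48 interferon stimulated genes by role. Both slope downward, and the 10 colored points in the highest of 3 GC bins all lie below 0.

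The type I interferon genes themselves were at or near 0. Of 18 type I interferon ligand genes, 15 had 0 counts in all 4 libraries and none passed the filter on low counts. Ifnb1, interferon beta, had 5 counts each in WT 1 and WT 2, 0 in KO 1 and 12 in KO 2. Siglech, a defining marker of plasmacytoid dendritic cells, which make large amounts of type I interferon, had 0, 2, 2 and 0 counts. The list of 6 such markers summed to 11.2 and 24.4 against 58.3 and 30.8 CPM, of which Tcf4 held 9.21 and 19.0 against 48.2 and 22.7. Its 2 genes tested, Tcf4 and Pacsin1, had 37 and 81 against 216 and 122 counts and 0 and 8 against 33 and 35, short of the threshold. Cox6a2 ran the other way with 7 and 13 against 4 and 4 counts, and Ccr9 and Klk1 had 3 counts or fewer in each library. Ifng, the interferon gamma gene of T and NK cells, was at 2.39 and 3.70 against 73.1 and 18.4 normalized CPM, highest in KO 1.

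Of 91 further pathway genes tested, 0 passed the threshold in edgeR, where 4 were higher and 6 lower at an unadjusted p under 0.05 (9.44% and 4.23% of all genes). The receptor chains Ifnar1 (-0.04 ± 0.42) and Ifnar2 (-0.44 ± 0.44) had adjusted p-values of 0.982 and 0.696. In the list of 8 receptor and signaling genes 4 were below 0 (median 0.06), and the kinases Jak2 (1.52 ± 0.74, adjusted p = 0.401) and Jak1 (0.77 ± 0.41, adjusted p = 0.446) lay farthest from 0. Jak2 was at 10.5 and 23.4 against 81.6 and 16.3 normalized CPM, where the groups overlapped and only KO 1 stood apart. In the list of 15 genes that sense nucleic acids upstream of interferon 13 were below 0 (median -0.40, against 47.4% of all genes below 0). Between the groups 8 of the 15 overlapped, as did 6165 of the 11837 genes tested. The list summed to 2205 and 2502 CPM in WT 1 and WT 2, 1331 in KO 1 and 2489 in KO 2, where KO 1 alone stood apart. In normalized CPM it summed to 2649 and 2627 against 1129 and 2327, without overlap. Tlr9, a receptor for unmethylated DNA, was at 7.18 and 6.16 against 1.51 and 1.91 normalized CPM (-1.94 ± 0.80, adjusted p = 0.330), and Irf5, a factor downstream of these receptors, at 613 and 460.1 against 176 and 385 (-0.94 ± 0.53, adjusted p = 0.460). Both were among the 6 of the 15 that were lower without overlap in normalized CPM, against 22.6% of all genes tested.

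In a list of 54 further interferon stimulated genes 28 were below 0, with a median of -0.03, against 0.05 for all genes tested. Their summed level was lower in both libraries labeled KO, at 8942 and 9198 against 6767 and 8723 CPM, but Ly6e held 3245 and 3459 against 1644 and 2767 of these, and without it the groups overlapped in CPM (5697 and 5739 against 5123 and 5956), though not in normalized CPM (6845 and 6025 against 4344 and 5567). The difference between this list and the 48 genes was not tested. The genes farthest from 0 were Ifi203, a member of the HIN-200 family of DNA-binding proteins, at 11.7 and 19.7 against 80.5 and 30.2 normalized CPM (1.81 ± 0.58, adjusted p = 0.231), and Oas1b at 5.98 and 4.44 against 2.65 and 0.868 (-1.56 ± 0.90, adjusted p = 0.472). Among 8 genes tested that are known mainly as interferon gamma targets, 5 were below 0 (median -0.22). The chemokine Cxcl9 was at 72.1 and 217 against 261 and 30.7 normalized CPM, so that both groups held a high and a low library (0.01 ± 0.85, adjusted p = 0.997). Cxcl10 (-0.32 ± 0.47) and Irf1 (-0.25 ± 0.45) had adjusted p-values of 0.799 and 0.839. Serpina3g (-1.06 ± 0.46, adjusted p = 0.350) and Ciita (-0.83 ± 0.53, adjusted p = 0.514) were the farthest from 0. Of the 6 negative regulators tested, 3 were below 0, and the farthest were Tnfaip3 (1.398 ± 0.51, adjusted p = 0.283) and Ptpn2 (1.09 ± 0.60, adjusted p = 0.457).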

How the data were processed

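For each library the authors deposited a table of whole-number counts of reads on each gene, made per the processing notes with HISAT2 2.1.0, HTSeq 0.11.0 and mm10. The annotation and strand setting are not given in the sources used here. Gene rows held 20.5% to 28.8% of the reads in a table, and all other rows were dropped. The test was edgeR 4.0.16 under R 4.3.3: filterByExpr, TMM factors, glmQLFit and glmQLFTest on group, 4 libraries in 1 fit, two-sided p adjusted over 11837 genes by Benjamini-Hochberg, threshold 0.05, prior count 0.125. An SE is the log2 fold change divided by the square root of F. Summed levels are CPM on gene totals, and normalized CPM uses TMM-scaled totals. DESeq2 1.42.0 was an alternative, as were other scalings, filters, a replicate block and each library left out. Scripts were tested on simulated data. Positions, lengths, GC content and shared 50-base words come from GENCODE M21, and promoters from RefSeq (GRCm38.p6). Figures used matplotlib 3.10.9.

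The 48 genes, the lists and the tests were chosen with earlier results of these data known. Genes were named by rule: in each role group the 4 largest fold changes whose higher group averaged 20 or more normalized counts, every gene above 0, 8 key pathway genes (1 of them not reported here) and the 2 largest changes of each pathway list. Other names were chosen after their values were seen. The spread between 2 libraries per group limits precision, and so does counting error for scarce genes such as Mx2, with 8 counts in WT 2.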

Additional observations from a re-analysis of the deposited data

How the results depend on the processing

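Of the 48 genes, 26 kept the sign of their fold change under all 19 alternatives that gave it, 21 lower and 5 higher in the libraries labeled KO. The count of genes past the threshold, 68, was 136 with library totals alone, 571 scaled to the macrophage or monocyte markers, 583 without a filter on low counts, 416 in DESeq2 and 181 at a threshold of 0.1. It was 177, 114 and 130 with trends on GC content, exon length or both removed. Among the interferon stimulated genes 1 (Gbp7) then passed without the filter and 0 under the other settings of this list, and 2 pathway genes passed on the macrophage or monocyte scale. Whether replicate numbers pair the samples is not known, and the correlation of the deviations, -0.19 over 2 pairs, cannot decide it. A replicate block gave 215 genes and none of the 48. Crossed pairing, added after seeing the data, gave 647 genes, 2 of the 48 and 2 pathway genes. With 1 library left out, 113 to 1249 genes, 0 to 11 of the 48 and 0 to 15 pathway genes passed, the highest counts without KO 2, and the median ranged from -0.92 to -0.18. It was -0.15 with library totals alone and 0.17 on the macrophage or monocyte scale. The log2 ratio of the summed level, -0.46, was -0.81 with DESeq2 size factors, -0.76 with upper-quartile factors and -0.16 on the macrophage or monocyte scale.

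Fold changes that changed sign were, with library totals alone, Ifit2 0.18, Mx1 0.10, Cmpk2 0.18, Stat2 0.15 and Ifi47 0.020. On the macrophage or monocyte scale they were Usp18 0.14, Ifit2 0.46, Ifitm1 0.21, Mx1 0.41, Mx2 0.19, Rsad2 0.052, Cmpk2 0.43, Samhd1 0.30, Oas2 0.30, Stat2 0.44, Gbp5 0.19, Igtp 0.34 and Ifi47 0.43. With the GC trend removed they were Sp100 -0.017, Trim30a -0.50, Slfn5 -0.0074, Gbp3 -0.039 and Irgm1 -0.28, with the length trend removed Irgm1 -0.074, and with both removed Ddx58 -0.045, Parp14 -0.057, Sp100 -0.088, Trim30a -0.48, Slfn5 -0.042 and Irgm1 -0.33. With 1 library left out the genes that changed sign ranged as follows: Isg20 -1.41 to 0.043, Ifitm1 -1.83 to 0.27, Mx1 -0.76 to 0.29, Mx2 -1.12 to 0.95, Rsad2 -1.39 to 0.043, Cmpk2 -0.91 to 0.33, Gbp2 -0.062 to 0.79, Gbp3 -0.48 to 0.77, Irgm1 -0.00090 to 0.070, Usp18 -1.63 to 0.25, Ifit2 -0.72 to 0.24, Stat2 -0.94 to 0.33, Parp14 -0.87 to 1.06, Trim30a -0.24 to 0.52, Slfn5 -1.35 to 1.30, Ddx58 -0.17 to 0.56, Sp100 -0.018 to 0.52 and Gbp5 -2.21 to 0.027. The cause was not tested.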
